A study of Mus musculus with 6 samples.

Results

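The imprinted locus of Igf2r and Airn on mouse chromosome 17 was read here by its DNA methylation. Its members are all cytosines that the table lists on the mm9 build from 12870000 to 12970000, joined into runs whose neighbours lay at most 100 bp apart. This gave 37 of 652716 cytosines and 12 of 249688 runs. The members were chosen by position, but with earlier results of these data known, so they are no random draw from the table. The table lists cytosines for having at least 10 reads over the samples of each group. Levels come from the methylated and unmethylated reads of all 6 samples. The samples are bone marrow cells from C57BL/6J mice labelled male, cultured in medium with supernatant of an SP2/0 line that secretes Flt3L, a cytokine that drives marrow cells towards dendritic cells. Day 0 is uncultured marrow (replicates 2 and 3). Day 4 is labelled common myeloid progenitors (replicates 1 and 2), and day 7 is labelled bone marrow derived dendritic cells (replicates 1 and 4). All live cells were used at day 4 and day 7, so each group is a mixture, and separate animals or cultures are not named for the replicates. The assay carries no expression, so the labelled cell types were not checked against marker genes. Reduced representation bisulfite sequencing reads cytosines near cut sites of the enzymes MspI and TaqI, and a read counts as methylated where bisulfite left the cytosine unconverted.

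Igf2r encodes a receptor that takes up insulin-like growth factor 2 and mannose-6-phosphate tagged enzymes and sends them to the lysosome. In most mouse tissues the gene is expressed from the maternal copy. Airn is a long noncoding RNA that starts inside Igf2r, runs antisense through its promoter and is expressed from the paternal copy, where its transcription silences Igf2r. The CpG island of the Airn promoter is methylated on the maternal copy from the egg onwards, and the Igf2r promoter gains methylation on the silent paternal copy later in development. A cell with both marks intact therefore has 1 methylated and 1 unmethylated copy at each promoter. C57BL/6J mice are inbred and the table lists counts per cytosine, so the copies were not told apart here.

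Windows at the annotated starts of the 2 genes are shown because these windows differ widely in CpG content and in cut sites of the enzymes. The sequences are from RefSeq on GRCm38.p6, cover 250 bases before to 50 after each gene's start, and are written 5′ to 3′ with every CG in capitals. Both genes were matched, and Airn starts inside the Igf2r gene in this annotation. Igf2r is on the minus strand at chr17:12769657-12769956 and Airn on the plus strand at chr17:12741061-12741360. These are coordinates of another build than the table's and were not converted, so the listed cytosines were not placed in these windows.

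Igf2r: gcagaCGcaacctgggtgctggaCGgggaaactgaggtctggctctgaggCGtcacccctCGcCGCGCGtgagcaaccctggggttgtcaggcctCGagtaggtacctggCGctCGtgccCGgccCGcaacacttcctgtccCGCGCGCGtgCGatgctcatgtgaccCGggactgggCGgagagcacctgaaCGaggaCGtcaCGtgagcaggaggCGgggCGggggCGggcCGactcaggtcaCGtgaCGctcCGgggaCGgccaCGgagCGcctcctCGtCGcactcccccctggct

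Airn: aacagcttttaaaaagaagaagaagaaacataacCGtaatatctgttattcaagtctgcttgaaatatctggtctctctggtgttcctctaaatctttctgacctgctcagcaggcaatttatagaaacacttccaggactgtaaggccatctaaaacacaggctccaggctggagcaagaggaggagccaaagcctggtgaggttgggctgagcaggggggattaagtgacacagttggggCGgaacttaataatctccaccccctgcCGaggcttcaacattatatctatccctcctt

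The Igf2r sequence holds 34 CG, more than 92.3% of the 32851 mouse promoters of this length in the RefSeq table, whose median is 7. It has 3 sites of the letters CCGG, which MspI cuts, and 1 of TCGA, which TaqI cuts, both of which read the same on either strand. The Airn sequence holds 3 CG and neither CCGG nor TCGA. CCGG is present in 52.8% of all these promoters and TCGA in 22.0%. No match says only that these letters are not in this window of the Airn start. The low CG count likewise holds for this window alone and not for the whole Airn promoter interval, where 14 cytosines were listed.

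The mm9 table listed 14 cytosines in the interval of the Airn promoter, from 12934000 to 12936000, and 11 in that of the Igf2r promoter, from 12962000 to 12963000. Airn run 1 spans 12934464 to 12934606 and Airn run 2 spans 12935111 to 12935233. Each holds 7 cytosines, and 505 bp lie between them. Igf2r run 1 spans 12962310 to 12962343 with 5 cytosines, Igf2r run 2 spans 12962754 to 12962758 with 3, and Igf2r run 3 spans 12962960 to 12962974 with 3. The other 12 cytosines lie in 7 runs outside both intervals, of which 5 are single cytosines. Positions of exons and introns on mm9 were not used here.

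Depth set how firmly these levels can be read. The libraries held 3641141 to 10242334 reads at listed cytosines, with a median of 4 reads per cytosine in day 7 replicate 4 and 9 to 14 in the others. The locus had 338 and 139 reads in day 7 replicates 1 and 4, against 399 to 532 in the other samples, and no cytosine of it had 10 reads in each sample. Both day 7 libraries also stood apart by their reads on the X chromosome, with 1.00 and 1.07 reads per X cytosine for each read per autosomal cytosine, against 0.650 to 0.688 in the day 0 and day 4 libraries. The libraries were split in this way although the mice are labelled male. The split coincides with the day 7 group, so in every day 7 comparison it cannot be told apart from the culture stage. Whether it plays a part at this autosomal locus was not tested.

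**Figure D1:**
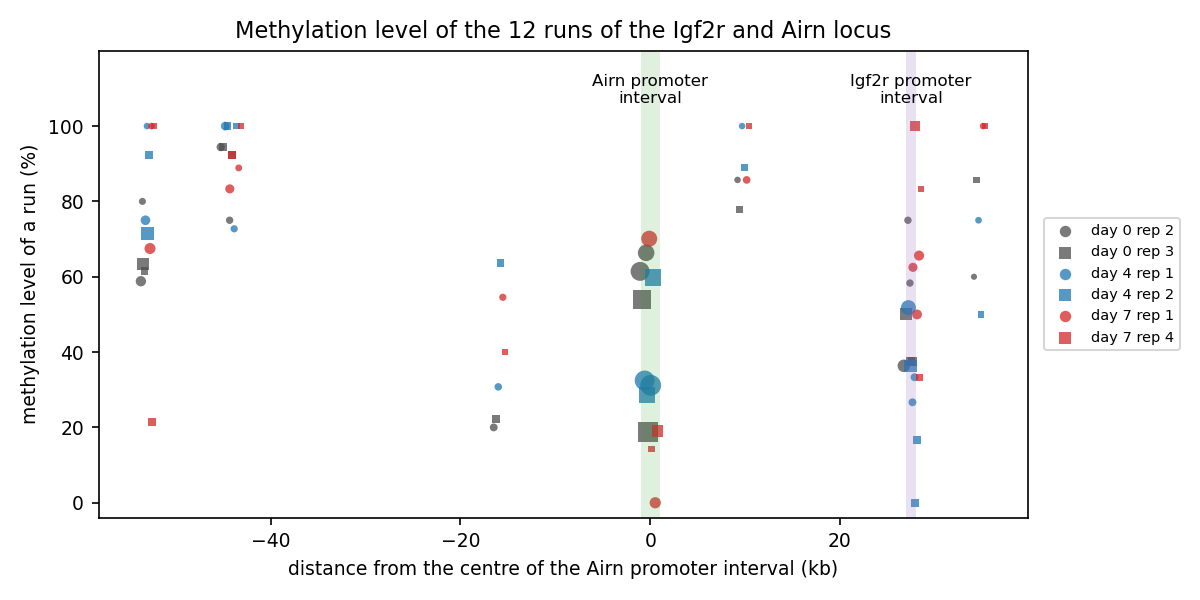
Methylation level in percent of the 12 runs (vertical axis) by distance in kb from the centre of the Airn promoter interval (horizontal axis). Each point is 1 sample, shifted sideways by sample and sized by its reads, and the bands mark the 2 promoter intervals. Levels of the promoter runs spread over most of the scale, from 0% to 100%, and the run of 3 cytosines on the left stayed at 83.3% or above.

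The Airn promoter had intermediate levels in most samples, but replicates differed widely. Airn run 1 stood at 61.4% and 54.0% in day 0 replicates 2 and 3, at 32.5% and 28.6% in day 4 replicates 1 and 2, and at 70.1% and 14.3% in day 7 replicates 1 and 4. Both day 4 samples thus lay below both day 0 samples, and the 2 day 7 samples lay on either side of all the others. The value of day 7 replicate 4 rests on 1 read at each of the 7 cytosines, so this run missed the minimum of 10 summed reads per sample and was not tested with the rest. With the minimum at 5 reads, its difference of day 4 minus day 0 was -27.2 points (day 4 averaged 30.5% ± 2.76 and day 0 57.7% ± 5.28, SD, n = 2 each) and did not pass (adjusted p = 0.5585, edgeR).

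Airn run 2 stood at 66.3% and 18.8% in day 0 replicates 2 and 3, at 31.2% and 59.8% in day 4 replicates 1 and 2, and at 0% and 19.05% in day 7 replicates 1 and 4. Day 7 was lowest on average, while the day 0 and day 4 samples overlapped. Day 0 replicate 3 lay as low as day 7 replicate 4. The day 0 replicates were 47.5 points apart, a gap reached by 0.0453% of the 55146 tested autosomal runs and by 0.191% of the 12065 of them with a mean level between 20% and 80%, whose median gap at day 0 was 8.33 points. At day 4 the replicates were 28.6 points apart, a gap reached by 3.58% of those intermediate runs, and at day 7 they were 19.05 points apart, a gap reached by 25.4% of them.

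Within a sample the cytosines of Airn run 2 moved as a block. Across the 7 cytosines the level ranged over at most 16.7 points in any sample, while the samples ranged over 66.3 points. Day 0 replicate 2 had 9 or 10 methylated among 14 or 15 reads at every cytosine of the run. Day 7 replicate 1 had 0 among 6 at every one, and day 7 replicate 4 had 1 or 2 among 6. Read numbers at the cytosines of this run differed by at most 1 in all 6 samples. Neighbouring cytosines on 1 fragment are read by the same reads, and no cytosine of the run had more than 6 reads in a day 7 sample, where the sum over the run is 42. The labels name no molecular identifiers, so the number of molecules behind these reads is unknown.

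At the depth of a single cytosine the levels were loosely bounded. Exact binomial 95% intervals, which cover counting error only, were taken at the deepest cytosine of each run, the first where several tied. For Airn run 2 they ran from 38.4% to 88.2% (10 of 15 reads) and from 5.19% to 40.3% (4 of 22) in day 0 replicates 2 and 3, and from 12.1% to 49.4% (7 of 25) and from 35.1% to 87.2% (9 of 14) in day 4 replicates 1 and 2. In day 7 replicate 1, 0 of 6 reads gave 0% to 45.9%, where the coarser limit of 3 counts allows up to 50%, and in day 7 replicate 4, 1 of 6 gave 0.421% to 64.1%. The exact interval held 50% in 3 of 6 samples for Airn run 2 and in 6 of 6 for Airn run 1.

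**Figure D2:**
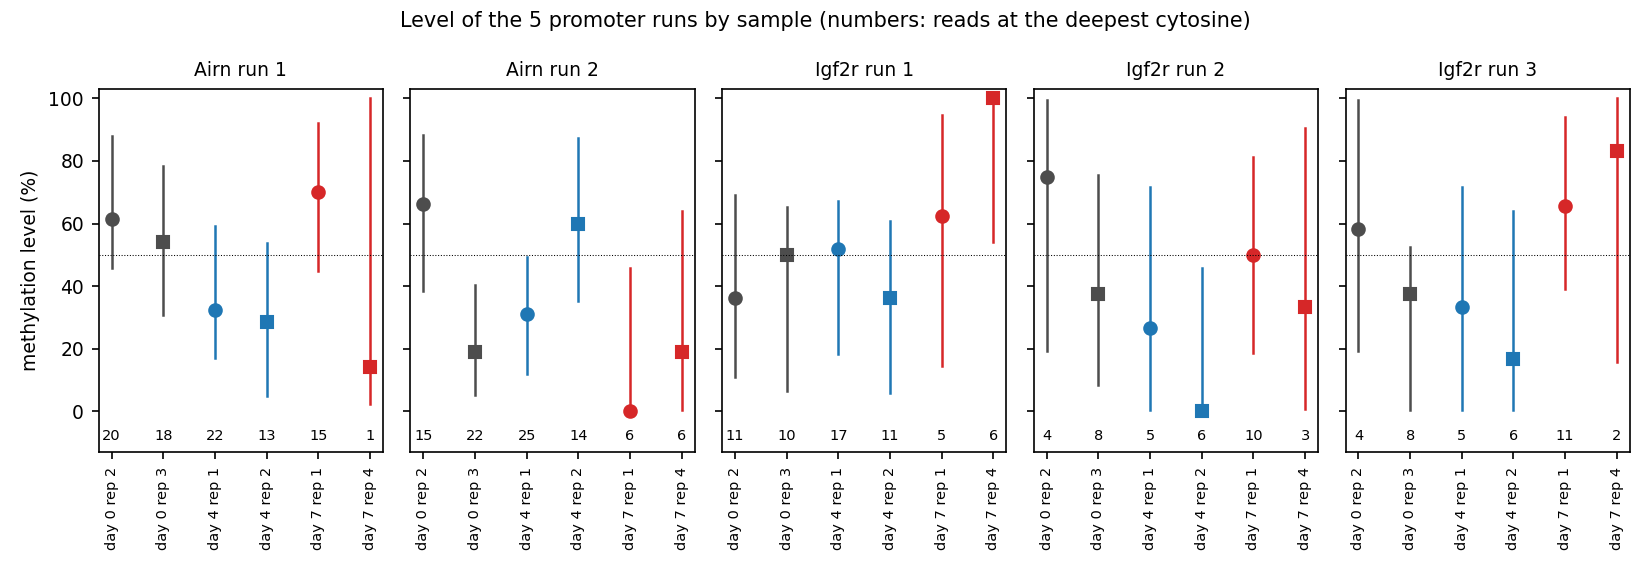
Methylation level in percent of the 5 promoter runs in each sample (points), with the exact 95% interval at the deepest cytosine (lines) and its read number below. The dotted line marks 50%, and most intervals cross it. Airn run 2 at day 7 rests on 6 reads in each sample, and Airn run 1 in day 7 replicate 4 on 1.

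The 2 Airn runs did not move together from sample to sample. They were within 4.92 points of each other in day 0 replicate 2, day 4 replicate 1 and day 7 replicate 4. Airn run 1 was higher than run 2 by 35.1 points in day 0 replicate 3 and by 70.1 points in day 7 replicate 1, and the difference was -31.2 points in day 4 replicate 2. In 3 of 6 samples the runs thus differed by at least 30 points. Among 704 neighbouring pairs of autosomal runs at most 1000 bp apart, with no fewer than 5 reads per sample and both means between 20% and 80%, 17.3% differed by 30 points or more in at least 3 samples.

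**Figure D3:**
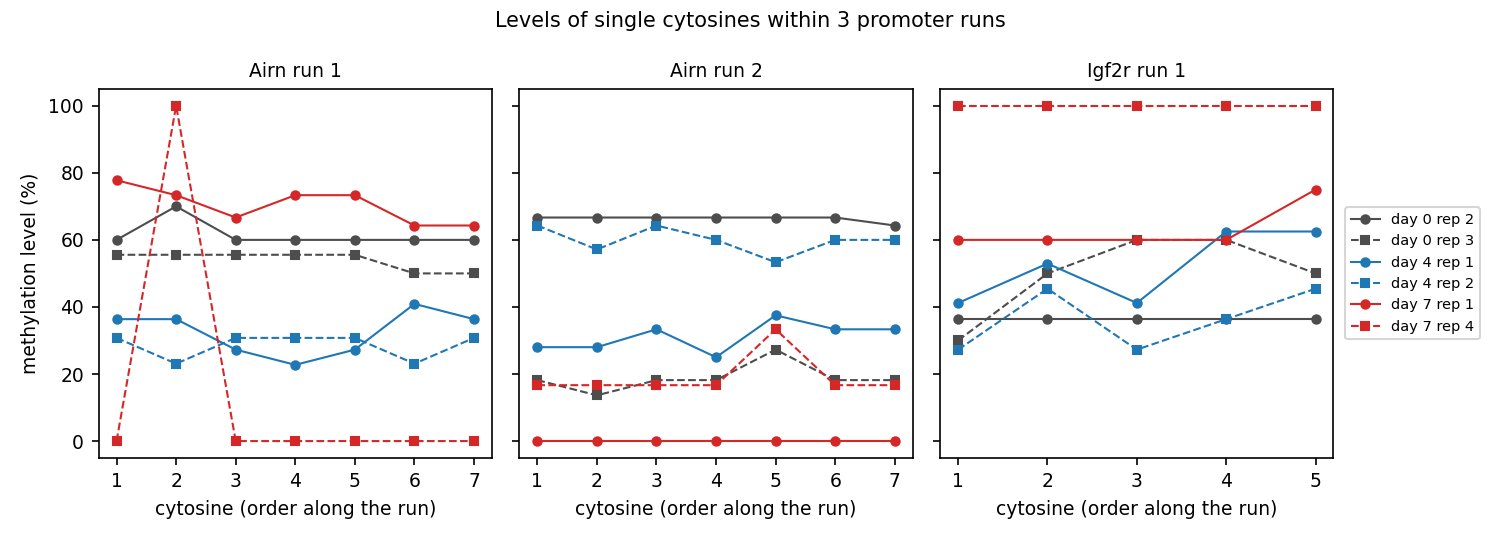
Methylation level in percent at each cytosine of 3 promoter runs, in order along the run, with 1 line per sample. Lines of Airn run 2 are nearly flat and lie apart by sample, from 0% in day 7 replicate 1 to 66.7% in day 0 replicate 2. The jump of day 7 replicate 4 in Airn run 1 is 1 methylated read at 1 cytosine.

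The Igf2r promoter had intermediate levels at day 0 and day 4 and higher ones at day 7 in the run with most cytosines. Igf2r run 1 stood at 36.4% and 50% in day 0 replicates 2 and 3, at 51.8% and 36.4% in day 4 replicates 1 and 2, and at 62.5% and 100% in day 7 replicates 1 and 4. Both day 7 samples lay above the 4 others, with 37.5 points between them. At the deepest cytosine they had 3 methylated of 5 reads, with an interval of 14.7% to 94.7%, and 6 of 6, with an interval of 54.1% to 100%. In day 7 replicate 4 each of the 5 cytosines was methylated in 6 of 6 reads. In the other 5 samples the interval held 50%.

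Runs 2 and 3 of the Igf2r promoter were shallower, with 2 to 11 reads per cytosine. Igf2r run 2 stood at 75% and 37.5% in day 0 replicates 2 and 3, at 26.7% and 0% in day 4 replicates 1 and 2, and at 50% and 33.3% in day 7 replicates 1 and 4. Igf2r run 3 stood at 58.3% and 37.5%, at 33.3% and 16.7%, and at 65.6% and 83.3% in the same samples. In both runs the day 4 samples lay below the day 0 and day 7 samples, and in run 3 alone day 7 lay above day 0. The 2 runs lie 202 bp apart and had equal read numbers at their deepest cytosines in 4 of 6 samples. Neither had 10 summed reads in each sample. With the minimum at 5 reads no comparison of either passed.

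Summed over its whole interval, the Igf2r promoter stood at 45.6% and 43.9% in day 0 replicates 2 and 3, at 46.0% and 25.3% in day 4 replicates 1 and 2, and at 59.3% and 84.4% in day 7 replicates 1 and 4. Day 7 averaged 71.9% ± 17.8, against 35.6% ± 14.7 at day 4 and 44.7% ± 1.196 at day 0, each with the SD of n = 2. The Airn interval as a whole stood at 63.5% and 34.6% at day 0, at 31.8% and 45.1% at day 4, and at 48.9% and 18.4% at day 7, in the same order of replicates. Its groups overlapped, with means of 33.6% ± 21.6 at day 7, 38.4% ± 9.40 at day 4 and 49.1% ± 20.4 at day 0. Of the 4 tested runs of the locus, 1 lay between 20% and 80% in all 6 samples, as did 7.56% of the tested autosomal runs. It was the run from 12881909 to 12881947, outside both promoter intervals. The tested promoter runs did not stay in that range, with 0% to 66.3% in Airn run 2 and 36.4% to 100% in Igf2r run 1.

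Day 4 against day 0 asks whether either imprint shifts between uncultured marrow and the progenitor culture. Neither tested promoter run differed beyond the spread of its replicates. Airn run 2 averaged 45.5% ± 20.2 at day 4 and 42.6% ± 33.6 at day 0, a difference of 2.90 points with a standard error of 27.7 (adjusted p = 0.9934, edgeR likelihood ratio test over 56105 runs). Igf2r run 1 averaged 44.1% ± 10.9 at day 4 and 43.2% ± 9.64 at day 0, a difference of 0.904 points with a standard error of 10.3 (adjusted p = 1, edgeR). Of the 4 tested runs of the locus 0 were called, where 0.00178% of all runs were called higher and 0% lower. In the locus 0 runs had an unadjusted p below 0.05 in this test, and the edgeR quasi-likelihood test and limma also called 0 of the 4. In 2 of the 4 the day 4 samples lay higher than either day 0 sample, as in 20.6% of all runs, and in 0 of the 4 lower, as in 10.3% of all runs. The promoter runs left untested for depth each had both day 4 samples below both day 0 samples. Their differences were -27.2 points in Airn run 1, -42.9 in Igf2r run 2 and -22.9 in Igf2r run 3. None of them passed with the minimum at 5 reads.

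Day 7 against day 4 compares the dendritic cell culture with the progenitor stage. Calls needed an adjusted p below 0.05 and a difference of 20 points or more. Airn run 2 averaged 9.52% ± 13.5 at day 7 and 45.5% ± 20.2 at day 4, a difference of -36.0 points with a standard error of 17.2 (adjusted p = 0.01085, edgeR), with both day 7 samples below both day 4 samples. Igf2r run 1 averaged 81.2% ± 26.5 at day 7 and 44.1% ± 10.9 at day 4, a difference of 37.2 points with a standard error of 20.3 that missed the threshold (adjusted p = 0.06047, edgeR). Of the 4 tested runs of the locus 1 was called lower, where 0.0553% of all runs were called lower and 0.396% higher. Only 56 of the 253 called runs lay on autosomes, where the shares were 0.0544% lower and 0.0472% higher. In a fit on autosomes alone 10 runs were called and the Airn run was not among them (adjusted p = 0.06677, edgeR). In 3 of the 4 the day 7 samples lay lower than either day 4 sample, as in 10.3% of all runs, and in 1 higher, as in 24.4% of all runs. Over the 4 runs the median difference was -20.5 points, against 0.958 points over all runs tested. This median does not stand for the whole locus. Among the lower runs, those from 12881909 (-28.8 points) and 12890328 (-12.2 points) lie outside both promoter intervals. The promoter runs left untested for depth had positive differences. These were 11.7 points in Airn run 1, with overlapping groups, 28.3 in Igf2r run 2 and 49.5 in Igf2r run 3.

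Between day 7 and day 0, the dendritic cell culture and uncultured marrow, Airn run 2 and Igf2r run 1 were both called, in opposite directions. Airn run 2 averaged 9.52% ± 13.5 at day 7 and 42.6% ± 33.6 at day 0, and fell by 33.1 points with a standard error of 25.6 (adjusted p = 0.03969, edgeR). The groups overlapped, since day 7 replicate 4 at 19.05% lay just above day 0 replicate 3 at 18.8%. Igf2r run 1 averaged 81.2% ± 26.5 at day 7 and 43.2% ± 9.64 at day 0, and rose by 38.1 points with a standard error of 19.9 (adjusted p = 0.04777, edgeR), with both day 7 samples above both day 0 samples. Of the 4 tested runs, 1 was called lower and 1 higher, where 0.016% of all runs were called lower and 0.481% higher. Among autosomal runs, which held 73 of the 279 calls, the shares were 0.0145% lower and 0.118% higher. In the fit on autosomes alone 23 runs were called and neither promoter run was among them (adjusted p = 0.1057 for Airn run 2 and 0.1129 for Igf2r run 1, edgeR). In 1 of the 4, the run from 12890328, the day 7 samples lay lower than either day 0 sample, as in 7.03% of all runs, and in 1 higher, as in 29.8% of all runs. The Airn replicates were 19.05 points apart at day 7 and 47.5 points at day 0, and this larger gap exceeds the Airn difference. The Igf2r replicates were 37.5 points apart at day 7 and 13.6 points at day 0, and here the larger gap is close to the Igf2r difference.

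The 3 calls were lost when no read counted more than once. With the deepest cytosine of each run in place of the sum, a setting added after the data were seen, Airn run 2 differed by -37.8 points between day 7 and day 4 (adjusted p = 0.7104, edgeR) and by -34.1 points between day 7 and day 0 (adjusted p = 0.6278). Igf2r run 1 differed by 45.8 points (adjusted p = 0.6526) and by 46.8 points (adjusted p = 0.5621) in the same comparisons. The sizes were close to those of the summed runs, while 0 of the 4 tested runs were called. In that fit, of 47211 runs over the whole table, 1 was called in the comparison with day 4 and 6 in that with day 0, against 253 and 279 of 56105 with summed reads. The edgeR quasi-likelihood test gave adjusted p of 0.07769 and 0.1778 for the Airn run and 0.2694 and 0.2147 for the Igf2r run in day 7 against day 4 and day 7 against day 0.

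The calls also depended on single libraries. Without day 7 replicate 1, whose 6 reads per cytosine at Airn run 2 were all unmethylated, the Airn difference from day 4 was -26.4 points (adjusted p = 0.3639, edgeR) and that from day 0 was -23.5 points (adjusted p = 0.4331). Without day 4 replicate 2 the Airn difference of day 7 minus day 4 was -21.7 points (adjusted p = 0.3735), and without day 0 replicate 2 that of day 7 minus day 0 was -9.31 points (adjusted p = 0.6324). The other omissions kept the Airn calls with larger differences. They gave -50.3 points from day 4 without day 4 replicate 1 (adjusted p = 0.005786) and -56.8 points from day 0 without day 0 replicate 3 (adjusted p = 0.0007679). Without day 7 replicate 4 they were -45.5 points from day 4 (adjusted p = 0.0001794) and -42.6 points from day 0 (adjusted p = 0.0006098). Where a sample is left out, the lone library of its group is assumed to vary like the other groups, so these p-values hold no replicate spread of that group. Without day 7 replicate 4, whose reads at Igf2r run 1 were all methylated, the Igf2r difference from day 0 was 19.3 points (adjusted p = 0.5909). Its call was lost too without day 0 replicate 2 (adjusted p = 0.363) and without day 0 replicate 3 (adjusted p = 0.09554). Without day 7 replicate 1, leaving a single day 7 library that was fully methylated, the Igf2r difference was 56.8 points from day 0 (adjusted p = 0.0001509) and 55.9 points from day 4 (adjusted p = 0.000195).

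**Figure D4:**
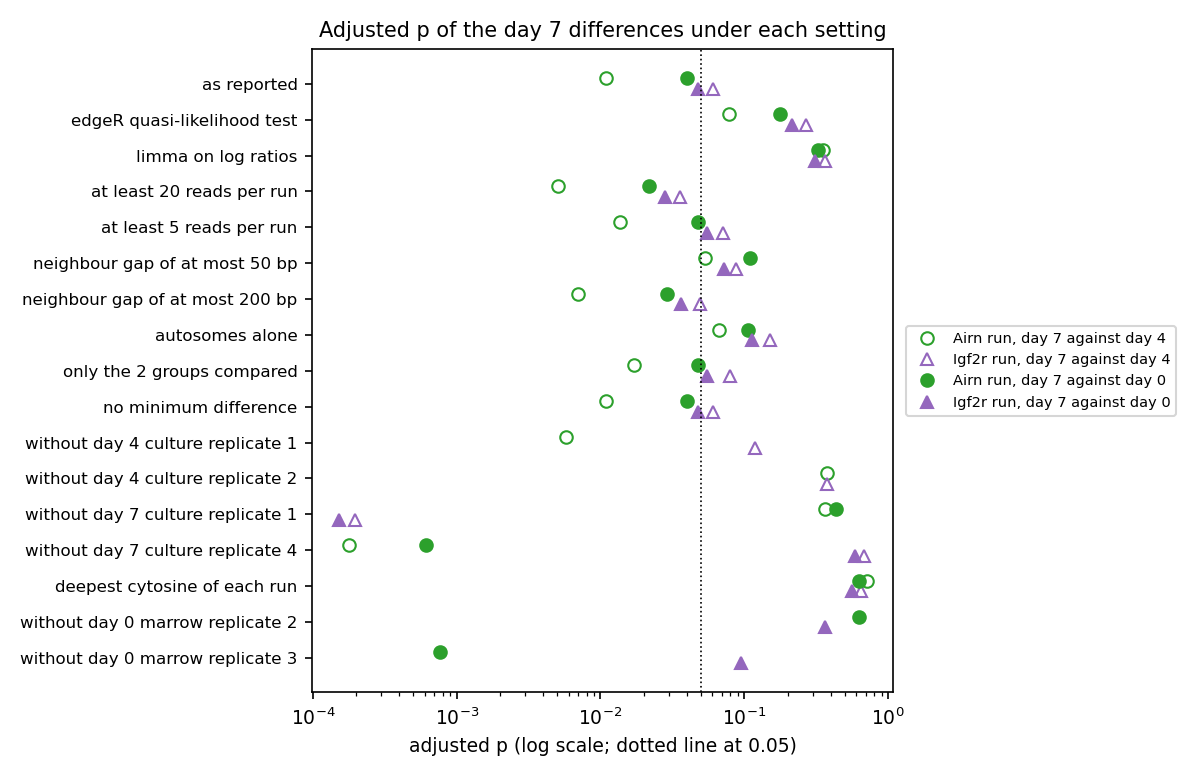
Adjusted p on a log axis for the day 7 differences of Airn run 2 (circles) and Igf2r run 1 (triangles) under each setting, open for day 7 against day 4 and filled for day 7 against day 0. With all samples and summed reads, 3 of the 4 lie left of the dotted line at 0.05 (0.01085, 0.03969 and 0.04777), while all 4 lie right of it with the quasi-likelihood test, limma, autosomes alone, the gap of 50 bp and the deepest cytosine.

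Opposite movement needs Airn and Igf2r differences of opposite sign, and at day 7 those of Airn run 2 and Igf2r run 1 had opposite signs, as given above. How far the promoters moved apart was read from each sample's own difference, the level of Airn run 2 minus that of Igf2r run 1. A change of this measure does not by itself show opposite directions, since it also falls where Igf2r alone is higher. It was 29.98 and -31.2 points in day 0 replicates 2 and 3, -20.6 and 23.4 points in day 4 replicates 1 and 2, and -62.5 and -81.0 points in day 7 replicates 1 and 4. Both day 7 samples lay below the 4 others, and the day 0 and day 4 samples covered the same range. The mean difference was -71.7 points at day 7, against 1.41 points at day 4 and -0.593 points at day 0, changes of -73.1 and -71.1 points. The two-sided exact permutation p was 0.3333 for both, the lowest value that groups of 2 allow, so this design cannot pass a threshold of 0.05. Day 4 minus day 0 changed by 2.00 points (exact permutation p = 1).

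Opposite signs depended on the Airn run and on the Igf2r run that were taken. For day 7 minus day 0, Igf2r run 2 differed by -14.6 points with overlapping groups, the same sign as both Airn runs. Igf2r run 3 differed by 26.6 points in that comparison. The difference of day 7 minus day 4 was 11.7 points in Airn run 1, the same sign as the 37.2 points of Igf2r run 1, and that of day 7 minus day 0 was -15.5 points, with overlapping groups in both. With Airn run 1 in place of run 2, a setting added after the data were seen, the level minus that of Igf2r run 1 was 7.60 and -85.7 points in day 7 replicates 1 and 4, which lay on either side of the day 4 samples at -19.3 and -7.79 points. Its change was -25.5 points for day 7 against day 4 (exact permutation p = 1) and -53.6 points for day 7 against day 0 (exact permutation p = 0.6667). Over the whole intervals the difference was -10.4 and -66.1 points at day 7, -14.2 and 19.8 points at day 4, and 18.0 and -9.23 points at day 0. The day 7 replicate 1 value lay within the day 4 range and below both day 0 samples. Among replicates of 1 group, the sample with the higher level in Airn run 2 had the lower level in Igf2r run 1 at day 0 and at day 4, and the higher level in both at day 7.

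**Figure D5:**
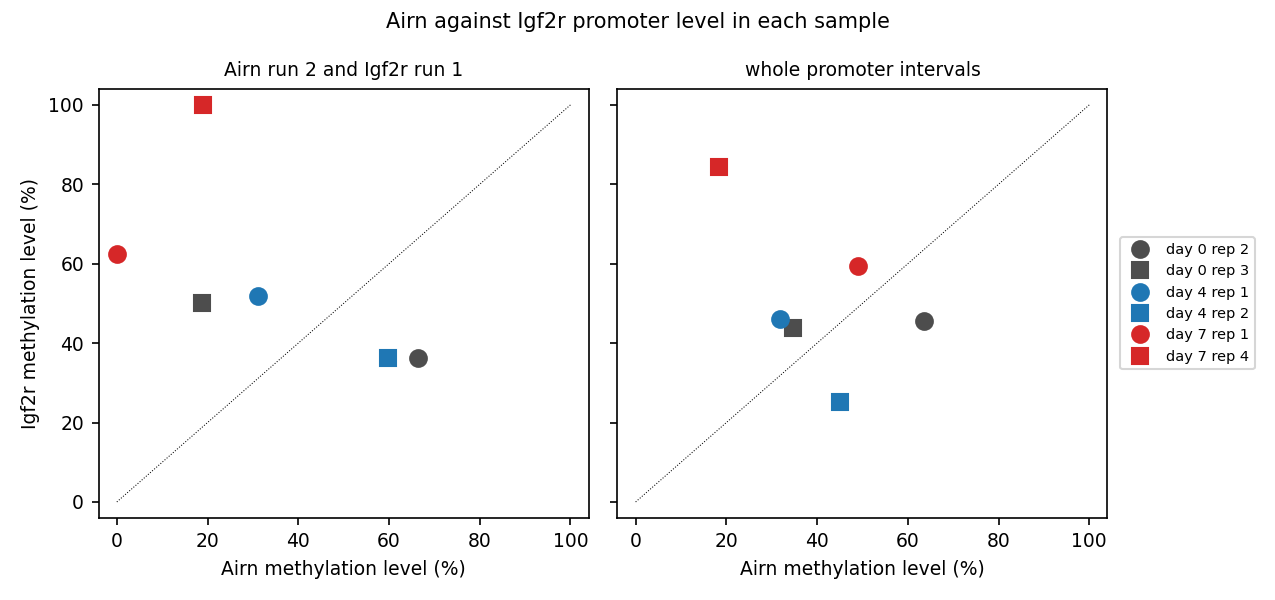
Igf2r against Airn promoter level in percent, 1 point per sample, for Airn run 2 and Igf2r run 1 (left) and for the whole promoter intervals (right). The dotted line marks equal levels. On the left both day 7 samples lie at the upper left, with Airn at 0% and 19.05% and Igf2r at 62.5% and 100%. On the right day 7 replicate 1 lies near the line, at 48.9% and 59.3%.

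Outside the promoter intervals the locus was mostly methylated. The run from 12890328 to 12890351 (3 cytosines) stood at 94.4% in both day 0 samples, at 100% in both day 4 samples, and at 83.3% and 92.3% in day 7 replicates 1 and 4, and its largest difference, -12.2 points for day 7 minus day 4, did not pass (adjusted p = 0.2866, edgeR). The run from 12881909 to 12881947 (4 cytosines) was intermediate, at 58.8% and 63.5% in day 0 replicates 2 and 3, 75% and 71.4% in day 4 replicates 1 and 2, and 67.5% and 21.4% in day 7 replicates 1 and 4. Only day 7 replicate 4, with 3 or 4 reads per cytosine, stood low. Its difference of day 7 minus day 4 was -28.8 points (day 7 averaged 44.5% ± 32.6 and day 4 73.2% ± 2.53, SD, n = 2 each) and did not pass (adjusted p = 0.4886, edgeR).

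Among the 5 single cytosines, read by 1 to 18 reads per sample, those at 12882088, 12891281, 12944805 and 12969715 averaged 78.4% to 89.7% over the 6 samples. The cytosine at 12919106 averaged 38.5% ± 17.7 (SD over 6 samples), with 20.0% and 22.2% in day 0 replicates 2 and 3, 30.8% and 63.6% in day 4 replicates 1 and 2, and 54.5% and 40% in day 7 replicates 1 and 4. Both day 0 samples were its lowest, on 15 and 18 reads. Single cytosines formed no tested run.

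The most alike regions elsewhere followed the 2 promoter runs loosely. Likeness was the mean absolute difference of level over the 6 samples, among 7352 autosomal runs elsewhere with at least 10 cytosines and 50 reads in each sample. Neither promoter run met these minimums itself. Airn run 2 had 7 cytosines and as few as 42 reads in a sample, and Igf2r run 1 had 5 and 24. Shorter or shallower runs like them were not compared, so the distances hold for longer and deeper runs alone. The nearest to Airn run 2, on chromosome 7 from 17579843 to 17580263, was still 16.6 points away and stood at 16.5% to 27.9% in all samples. The next 4, on chromosomes 8, 12, 17 and 8 from 128193930, 88223312, 27177317 and 73277222, were 17.3 to 17.9 points away. The nearest to Igf2r run 1 was on chromosome 3 from 88340601 to 88340854, 11.2 points away, at 57.0% and 43.95% in day 0 replicates 2 and 3, 51.5% and 57.7% in day 4 replicates 1 and 2, and 60.2% and 83.3% in day 7 replicates 1 and 4. The next 4, on chromosomes 7, 16, 7 and 5 from 112910655, 3689559, 134910973 and 113504946, were 11.9 to 14.1 points away.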

How the data were processed

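The authors' deposited table gives, per cytosine and sample, the methylated fraction and the counts of unmethylated and methylated reads. The submitters' processing notes name Bismark, Bowtie2 and the mm9 build. No source used here gives versions, or says whether reads were trimmed, deduplicated or split by strand. Each deposited fraction equalled methylated over all reads, and the smallest sum of read counts over the 2 samples of any group was 10. All its sample columns were used.

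The members and lists were chosen with earlier results of these data known. Runs joined cytosines at most 100 bp apart. Runs of at least 3 cytosines with at least 10 summed reads in each sample, and at least 1 methylated and 1 unmethylated read in all, were tested over the whole table: 56105 runs, 4 of them here. The test was edgeR 4.0.16 in R 4.3.3, with negative binomial counts of both kinds of read, a term per sample and a methylation term per group, all 6 samples in 1 fit, untrended dispersion, a likelihood ratio test and Benjamini-Hochberg adjustment over all runs tested. A call needed an adjusted p below 0.05 and a difference of group means of at least 20 points. A level is methylated reads as a percent of all reads of a run.

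Named were all runs in either promoter interval, every other run of at least 3 cytosines with 10 reads in each sample, the single cytosines as a group, and the 5 most alike autosomal runs of each promoter run. The promoter run was to be the one with most cytosines. The 2 Airn runs tied at 7, and run 2, the only one to pass the read minimum, was taken after the data were seen. Alternatives were the quasi-likelihood test, limma 3.58.1 with a pseudocount of 0.5, minimums of 5 and 20 reads, gaps of 50 and 200 bp, autosomes alone, only the groups compared, no minimum difference, other ways of summing and each sample left out. Since the labels name no separate animals or cultures, a p-value here reflects the spread among the given samples alone, and that spread may be technical.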

Additional observations from a re-analysis of the deposited data

How the results depend on the processing

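No paired analysis was possible because the groups share at most 1 replicate number. The minimum of 10 reads at each cytosine left none in either promoter run and gave no value. Depth limits every value here: 1 to 25 reads per promoter cytosine. Values are in percentage points, each given as day 7 against day 4 and then day 7 against day 0.

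The Airn call (-36.0 and -33.1) was lost in the quasi-likelihood test and limma (adjusted p = 0.07769 and 0.1778, and 0.3519 and 0.324, with the same differences), with a gap of 50 bp (-36.0 and -33.1, adjusted p = 0.05308 and 0.1103, edgeR), with autosomes alone (0.06677 and 0.1057) and with the deepest cytosine (-37.8 and -34.1). Airn run 1 gave 11.7, a reversal, and -15.5 (adjusted p = 0.9763), and leaving out a sample -50.3 to -21.7 and -56.8 to -9.31. Adjusted p ranged from 0.0001794 to 0.7104 and from 0.0006098 to 0.9763. The Igf2r difference (37.2 and 38.1) passed for day 7 against day 4 with at least 20 reads (adjusted p = 0.03544) and a gap of 200 bp (0.04949). The day 7 against day 0 call was lost in the quasi-likelihood test, in limma (0.31), with 5 reads (0.05538), a gap of 50 bp (0.07277), autosomes alone (0.1129), only these groups (0.05506) and the deepest cytosine (46.8). Leaving out a sample gave 18.4 to 55.9 and 19.3 to 56.8. Adjusted p ranged from 0.000195 to 0.6843 and from 0.0001509 to 0.5909.

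Against 1 called run for day 7 against day 4, the count was 0 in the quasi-likelihood test, limma, a gap of 50 bp, autosomes alone and the deepest cytosine, 2 were called with 20 reads or a gap of 200 bp, and 0 to 1 without a sample. Against 2 for day 7 against day 0, it was 0 in the same 5 settings, 1 with 5 reads or only these groups, and 0 to 1 without a sample.

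For day 4 against day 0 no setting made a call, and directions turned: Airn (2.90) was -27.2 with run 1 and -20.9 to 26.7 without a sample, Igf2r (0.904) was -6.82 to 8.63, and Airn minus Igf2r (2.00) was -1.57 over whole intervals, -28.1 with run 1 and -28.6 to 32.6 without a sample. Airn minus Igf2r was -95.2 to -25.5 and -101.7 to -40.6 in the settings run. At -25.5, with Airn run 1, both promoters had positive differences, so the sign of this measure is no sign of opposite movement. Of the 87 alternatives for a difference of a promoter run, 53 left direction and side of the threshold as they were, 25 lost a call, 3 gained one and 6 turned direction. All 25 belong to the day 7 differences that were called. Among the 53 are alternatives of differences that had no call to lose, and removing the minimum difference could not lose one. The 53 are therefore no measure of how stable the calls were.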
